A study of Mus musculus with 9 samples.

Results

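The TCA cycle is the mitochondrial pathway that oxidises acetyl-CoA, and 9 genes of its enzymes were followed here: Cs, Idh2, Idh3a, Idh3b, Idh3g, Ogdh, Suclg1, Fh1 and Mdh2. They were chosen for the function of their products, and every probe set annotated with exactly 1 of these symbols was taken, which gave 16 of the 22626 probe sets that are not array controls (9 of 12393 genes). Total RNA was measured in 6 alveolar rhabdomyosarcomas of mice and, as the controls, in 3 skeletal muscles labelled wild-type, on 1 Affymetrix array each. This tumour is a soft-tissue cancer whose cells express genes of the skeletal muscle lineage. Beyond the word wild-type for the muscles, the labels name no genotype, strain, age or treatment, no allele or promoter behind the tumours and no particular muscle. Nor do they say that samples came from different animals, so every p-value reflects only how far these samples scatter, which may be technical. The comparison asks how the tumours differ from skeletal muscle.

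In each turn of the cycle, citrate synthase joins acetyl-CoA to oxaloacetate, a chain of dehydrogenases passes electrons to NAD and ubiquinone, and succinyl-CoA synthetase makes a nucleoside triphosphate. Skeletal muscle, above all its oxidative fibres, is rich in mitochondria, and citrate synthase activity is a common measure of their content. Signals are MAS5 values, a linear brightness in arbitrary units, after every array was multiplied to 1 common trimmed mean. The number of arrays limits their precision. Levels were mostly compared between samples for 1 probe set at a time. Some results combined probe sets, such as sums and medians over lists and differences between paired genes within an array. In sums the brighter probe sets weigh more.

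The arrays themselves differed before any gene was considered. Muscle 1 and muscle 3 had been deposited on a lower scale than the other 7 arrays and were multiplied by 1.6995 and 3.5493. Gapdh control probe sets at the 3' end were brighter than those at the 5' end, and this ratio rises when RNA is less intact. It was 1.93 to 9.39 on the tumour arrays and 1.68, 57.17 and 33.0 on muscles 1 to 3. For beta-actin the same ratio was 3.35 to 6.78 on the tumour arrays and 1.87, 4.06 and 4.35 on muscles 1 to 3, so the 2 controls ordered the groups differently. For 11 measured adult muscle fibre markers the summed signal was 2557 to 155122 in tumours and 215099 to 309801 in muscles, the highest tumour value being that of tumour 1. The 9 macrophage markers summed to 8995 to 39651 in tumours and 2783 to 4205 in muscles, and 7 of the 9 rose in tumours. The 3 measured adipocyte markers summed to 155 to 1261 in tumours and 7691 to 9872 in muscles, and all 3 fell. The 6 cell division markers summed to 10040 to 36638 in tumours and 401 to 1687 in muscles, and all 6 rose. The 5 endothelial markers summed to 765 to 2038 in tumours and 2492 to 2902 in muscles, and 1 of the 5 fell. Sums of the fibroblast, myogenic tumour and T cell markers overlapped between the groups. The part of these differences in the results below was not tested, and in bulk RNA fewer cells of a type and less RNA per cell cannot be told apart.

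Most enzyme genes of the cycle were lower in the tumours. Taking each gene by its brightest probe set, 7 of the 9 genes fell in tumours and none rose (limma, Benjamini-Hochberg adjusted p under 0.05). Of all genes 17.2% were called, 8.77% lower and 8.40% higher. In the same 7 genes every tumour lay below every muscle, which held for 11.0% of all genes, while 10.7% had every tumour above. Among their probe sets 13 of 16 were called lower and none higher, against 15.4% of all probe sets called, 7.53% lower and 7.88% higher. In 13 every tumour lay below every muscle and in 1 above, against 9.70% and 10.1% of all probe sets. The median log2 difference between tumour and muscle was -2.41 over the 9 genes and 0.11 over all genes. Idh3a, Ogdh and Fh1 were the lowest, at 12.1%, 11.7% and 14.1% of their muscle means. Idh2 and the brightest probe set of Idh3g did not pass the test. All 16 probe sets lay above the median brightness of the array over the 9 samples. A fit without the probe sets under that median called 3125 of 11313, 1495 lower and 1630 higher. These are larger shares than over all probe sets. In that fit 13 of the 16 were again called lower.

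**Figure D1:**
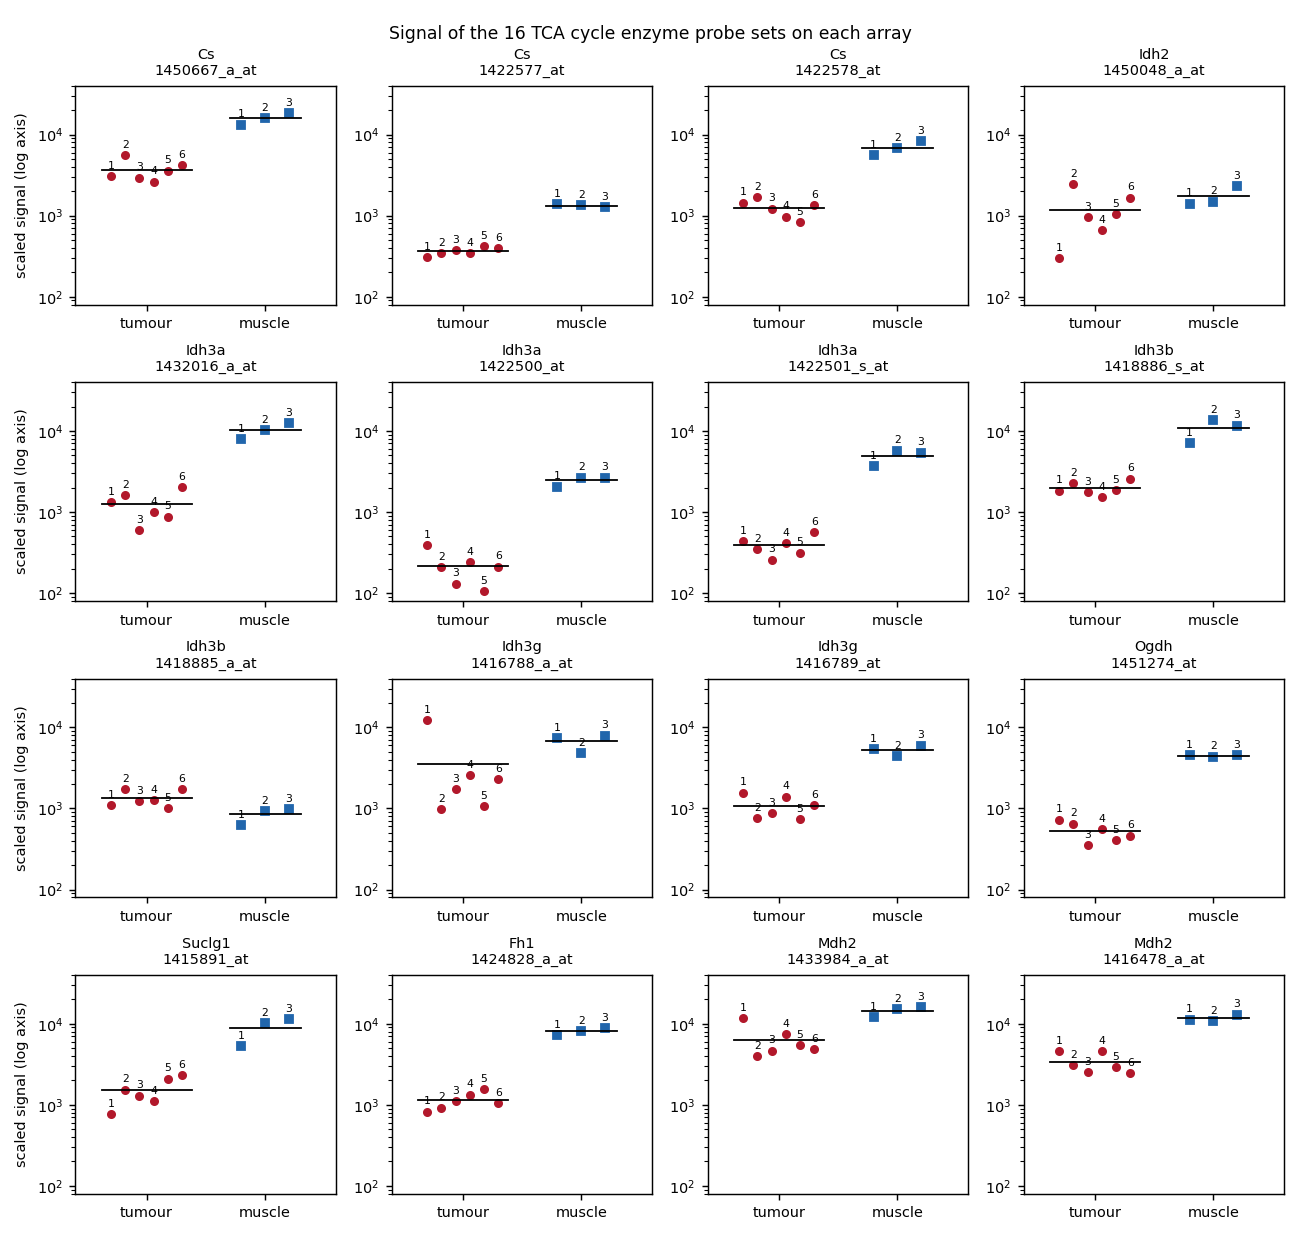
Scaled MAS5 signal (arbitrary units, log axis) of the 16 probe sets of the 9 genes, with tumours 1 to 6 as red circles, muscles 1 to 3 as blue squares and group means as black bars. Tumours lie below all muscles in 13 panels, overlap them for Idh2 and for 1 probe set of Idh3g, and lie above them for 1 probe set of Idh3b.

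Citrate synthase, which opens the cycle, was read by 3 probe sets that all fell. On the brightest, Cs had its lowest, median and highest tumour signals at 2626, 3347.5 and 5576, against 13284.5, 15966 and 18407 in muscles 1 to 3. Even the highest tumour, tumour 2, stayed well under the lowest muscle. The log2 difference of Cs was -2.14 ± 0.35 (SE), with a limma adjusted p of 0.000894, and its other probe sets gave -1.83 ± 0.30 and -2.47 ± 0.32.

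Isocitrate is oxidised in mitochondria by 2 enzymes. The NAD-linked enzyme of the cycle is built from the catalytic alpha subunit (Idh3a) and the beta and gamma subunits (Idh3b, Idh3g), of which gamma is regulatory. Idh2 is a separate NADP-linked enzyme that makes mitochondrial NADPH and can also run in the reductive direction.

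The catalytic subunit gene fell on all 3 of its probe sets. On the brightest, Idh3a had its lowest, median and highest tumour signals at 604.5, 1162.5 and 2029, against 7955.5, 10239 and 12539 in muscles 1 to 3. All its tumour values lay far below the muscles, an 8.66-fold difference with a limma adjusted p of 0.000135. The remaining Idh3a probe sets gave log2 differences of -3.52 ± 0.40 and -3.62 ± 0.33 (SE).

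The 2 probe sets of Idh3b went opposite ways. On the brighter, the lowest, median and highest tumour signals were 1540.0, 1849 and 2589.8, against 7102, 13659 and 11596 in muscles 1 to 3. The 6 tumours were close to each other, with a coefficient of variation of 19.3%, and far below the muscles, at a log2 difference of -2.41 ± 0.33 (limma adjusted p = 0.000265). On the other, they were 1009, 1255.6 and 1748 in tumours, against 628, 924 and 973 in muscles 1 to 3. Every tumour thus lay above every muscle there, yet the log2 difference of 0.66 ± 0.32 did not pass the test (limma adjusted p = 0.199). Without the rescaling of 2 muscle arrays this Idh3b probe set was called higher, at 1.5 (adjusted p = 0.0384). As the mean of both probe sets Idh3b was not called (-0.87, adjusted p = 0.0601). By the array's naming the brighter may match transcripts of more than 1 gene, and the other reads alternative transcripts of 1 gene. Which Idh3b transcripts each of the pair reads was not examined, so a single direction for this subunit gene is uncertain.

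Idh3g, the regulatory subunit gene, depended on tumour 1. On its brightest probe set, the lowest, median and highest tumour signals were 988, 2006 and 12243, against 7372, 4823 and 7892 in muscles 1 to 3. Only tumour 1 reached the muscles, and it exceeded all of them, while the other 5 tumours lay below. The log2 difference was -1.53 ± 0.63 (limma adjusted p = 0.125), and -2.01 without tumour 1, when Idh3g was called lower (adjusted p = 0.0018). On the other probe set, the same tumours gave 732, 982.5 and 1564, against 5368, 4451 and 5951 in muscles. Tumour 1 was again the highest tumour there but stayed below every muscle, and Idh3g differed by -2.33 ± 0.34 (limma adjusted p = 0.000362).

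The Idh2 groups overlapped. Its lowest, median and highest tumour signals were 300.1, 999 and 2442, against 1408, 1485 and 2307 in muscles 1 to 3. Tumours 1, 3, 4 and 5 lay below every muscle, tumour 1 the furthest, while tumour 6 lay among the muscles and tumour 2 above all of them. The log2 difference of -0.79 ± 0.52 did not pass the test (limma adjusted p = 0.38), and its 95% interval ran from -1.91 to 0.32. Without the rescaling of 2 muscle arrays it was 0.06.

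The steps after isocitrate fell together. Ogdh encodes the first subunit of the 2-oxoglutarate dehydrogenase complex, which turns 2-oxoglutarate into succinyl-CoA. It had its lowest, median and highest tumour signals at 350.2, 510.3 and 726, against 4500.6, 4351 and 4583 in muscles 1 to 3. The muscles were nearly identical and the tumours varied by a coefficient of 27.9%, with a gap of 8.56-fold between the groups (limma adjusted p = 3.14e-05). Suclg1 encodes the alpha subunit shared by both forms of succinyl-CoA synthetase. Its tumour signals were 776, 1423 and 2336 in the same order, against 5276, 10215 and 11321 in muscles 1 to 3. Muscle 1 was the lowest muscle by far, yet no tumour reached it, and Suclg1 differed by -2.55 ± 0.40 (limma adjusted p = 0.00069).

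Fh1, fumarate hydratase, forms malate from fumarate, and its loss of function is known in human hereditary renal cell cancer. Its lowest, median and highest tumour signals were 825, 1084 and 1554, against 7261, 8114.5 and 8838 in muscles 1 to 3. Fh1 stood at 10.2% to 19.2% of its muscle mean in every tumour, 7.16-fold below the muscles (limma adjusted p = 4.64e-05).

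Mdh2, the mitochondrial malate dehydrogenase that regenerates oxaloacetate, had the smallest fall among the called genes. On its brightest probe set, the lowest, median and highest tumour signals were 4013, 5149 and 11817.5, against 11951, 15202 and 16008.5 in muscles 1 to 3. Tumour 1 came within a few percent of the lowest muscle, and the groups only just separated. The log2 difference of -1.26 ± 0.40 passed narrowly (limma adjusted p = 0.0474), and the call was lost in 12 of 22 alternatives, among them leaving out any 1 array other than tumour 1 (adjusted p = 0.0557 to 0.186). The second probe set gave 2439, 2996 and 4606 in tumours, against 11208, 10753 and 12975.5 in muscles, and differed by -1.83 ± 0.34 (limma adjusted p = 0.00233).

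**Figure D2:**
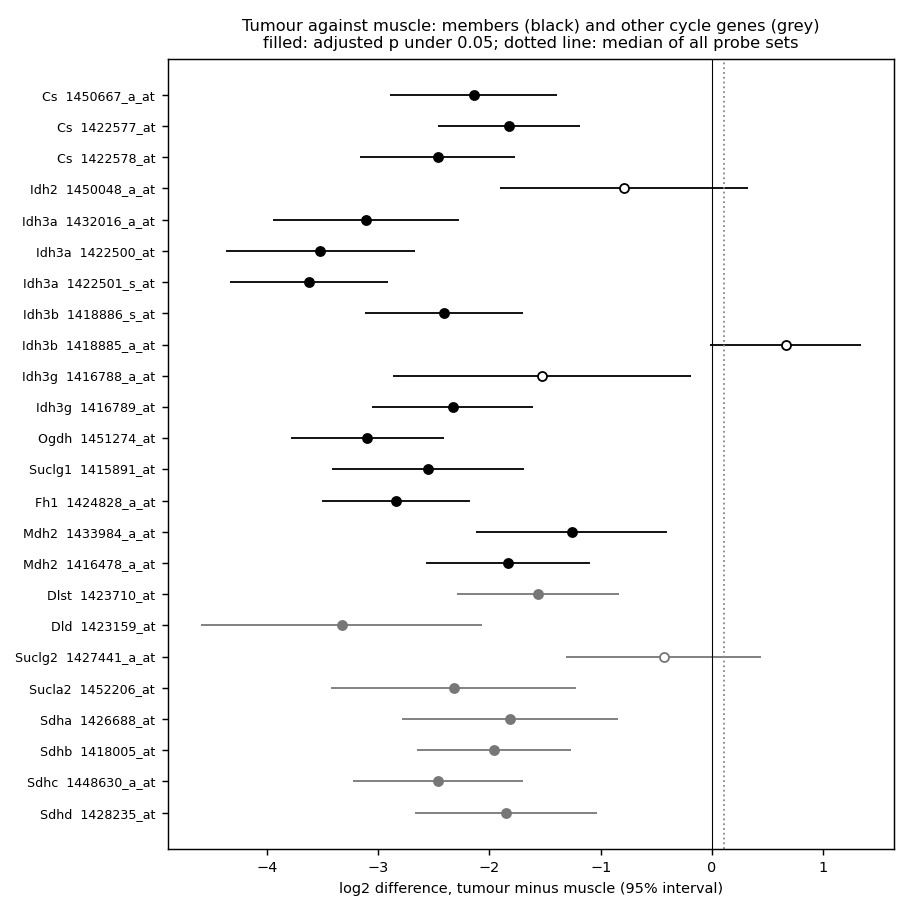
Log2 difference of tumour minus muscle (x axis, points) with 95% intervals from the limma fit (lines) for the 16 probe sets of the 9 genes (black) and the brightest probe set of 8 other cycle genes (grey). Filled points passed an adjusted p of 0.05; the open points are Idh2, 1 probe set each of Idh3b and Idh3g, and Suclg2, and the dotted line marks the median of all probe sets at 0.11.

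The other genes of the cycle, from a list of further enzymes, were also mostly lower. Of the 8 genes analysed 7 fell and none rose, against 8.77% and 8.40% of all genes. The median log2 difference of the 8 was -1.91. The 4 subunits of succinate dehydrogenase, which is also respiratory complex II, fell by similar amounts on their brightest probe sets. Sdha was at -1.81 ± 0.45, Sdhb at -1.96 ± 0.32, Sdhc at -2.46 ± 0.36 and Sdhd at -1.85 ± 0.38. Dlst and Dld, the other catalytic components of the 2-oxoglutarate dehydrogenase complex, differed by -1.56 ± 0.34 and -3.33 ± 0.59. Second probe sets of Dlst and Sdhd pointed the same way without a call, at -0.9 and -0.96. Those of Sdha and Sdhc were called lower, at -2.56 and -1.53, so the amounts varied with the probe set. The calls of Sdha and Dlst were lost in 3 and 2 of 22 alternatives. Without the rescaling of 2 muscle arrays 2 of these 8 genes were called lower, and 5 of the 9 genes described first.

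Succinyl-CoA synthetase pairs its alpha subunit with a beta subunit that makes the enzyme specific for ATP (Sucla2) or GTP (Suclg2). Sucla2 had its lowest and highest tumour signals at 709 and 4330, against 9948, 12466.5 and 14632 in muscles 1 to 3. Sucla2 therefore lay below the muscles in every tumour, at a log2 difference of -2.32 ± 0.52 (limma adjusted p = 0.00699). Suclg2 ranged from 103 to 308 in tumours and from 239 to 254 in muscles, and the groups overlapped, at -0.44 ± 0.41 (adjusted p = 0.575). The difference between Suclg2 and Sucla2 within an array was higher in all 6 tumours than in any muscle.

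Such differences were tested for 6 pairs of genes, each gene by its brightest probe set. The exact two-sided permutation test ran over the 84 assignments of arrays, and its smallest possible p is 0.0238. No pair passed after adjustment over the 6. Suclg2 minus Sucla2 differed by 1.89 ± 0.88 (log2, SE) at an exact p of 0.0238, adjusted to 0.0714. Idh2 minus Idh3a gave 2.32 ± 0.62 with the same exact p and the same adjusted p of 0.0714, and here too all 6 tumours lay above every muscle. Idh3a minus Idh3b gave -0.71 ± 0.30 (exact p = 0.0476, adjusted 0.0952) and Idh3a minus Idh3g -1.59 ± 0.83 (exact p = 0.0714, adjusted 0.1071). The sizes of both depend on the probe set, as the unused probe sets of Idh3b and Idh3g differed by 0.66 and -2.33. With 9 arrays, an adjusted p under 0.05 needed 3 or more pairs at the smallest p, or all 6 at 0.0476 or below.

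No difference in shift was detected between mitochondrial and cytosolic forms of the same enzyme, with wide intervals. Mdh1, the cytosolic malate dehydrogenase of the malate-aspartate shuttle, differed by -1.25 ± 0.39 and Mdh2 by -1.26 ± 0.40. Their difference was -0.01, with a 95% interval of -1.21 to 1.19 and an exact permutation p of 0.976. The Mdh1 groups overlapped, and of 4 Mdh1 probe sets 3 were called lower and 1, not called, was at 1.46. Idh1, the cytosolic NADP-linked form, differed by -1.17 ± 0.70 without passing (limma adjusted p = 0.325), and Idh2 minus Idh1 gave 0.38, with an interval of -0.90 to 1.65 (exact permutation p = 0.595).

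The reach of the fall beyond the cycle was described with 3 further lists. For comparison, 8.77% of all genes were called lower and 8.40% higher. Among 6 cytosolic enzymes that use cycle intermediates 4 fell and none rose. These were Got1 at -3.05 ± 0.56, the malic enzyme gene Me1 at -2.11 ± 0.39, Mdh1 and Aco1. The calls of Mdh1 and Aco1 were lost in 12 and 10 of 22 alternatives, so the count called lower ran from 1 to 4 and was 2 without tumour 6, muscle 1 or muscle 2, and 1 gene was called higher in 7 of the 22. Acly, which splits exported citrate for lipid synthesis, was at 2642 to 4626 in tumours and 1591 to 2912 in muscles, an uncalled log2 difference of 0.99 ± 0.33 (limma adjusted p = 0.0593). Among 6 measured mitochondrial enzymes that feed or drain the cycle 3 fell and none rose: Pcx, which carboxylates pyruvate to oxaloacetate, at -2.17 ± 0.49, the ketone body enzyme gene Oxct1 at -1.98 ± 0.48 and the aspartate aminotransferase gene Got2 at -1.62 ± 0.33. Me2, the NAD-linked mitochondrial malic enzyme, had 135 to 699 in tumours and 35, 109 and 80.2 in muscles 1 to 3. It lay higher in every tumour than in any muscle but was not called (1.70 ± 0.56, limma adjusted p = 0.0534), while the dimmer probe set of Me2 was called higher, at 2.18 ± 0.57 (adjusted p = 0.0174). In 11 of 22 alternatives 1 or 2 of these 6 mitochondrial genes were called higher, 2 of them without tumour 1. Acly and Me2 were singled out after their values were seen.

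General mitochondrial genes moved less. Of 18 measured genes of the outer membrane channel, protein import, chaperones, proteases and cristae 3 fell and none rose. Of all genes 8.77% were called lower and 8.40% higher. In 6 of the 18 every tumour lay below every muscle and in none above, against 11.0% and 10.7% of all genes. The median log2 difference of the 18 was -0.53, against -2.41 for the 9 cycle genes. The 3 called lower were the cristae scaffold gene Immt at -2.22 ± 0.42, the import channel gene Timm17a (limma adjusted p = 0.00279) and the channel gene Vdac3 at -1.48 ± 0.37. Without the rescaling none of the 18 was called lower and 1 was called higher, with a median of 0.33, and that of the 9 cycle genes was -1.55. Of 6 regulators of mitochondrial genes 3 fell and none rose. Esrra (the nuclear receptor ERR-alpha) was at -2.05 ± 0.41, Ppargc1a (its coactivator PGC-1-alpha) at -1.82 ± 0.45 and Tfam (the mitochondrial DNA-binding factor) at -1.34 ± 0.42. Of those not called, Nrf1 lay higher in every tumour than in any muscle, at 0.49 ± 0.33 (limma adjusted p = 0.389). Ppargc1b and Gabpa were at -1.13 ± 0.44 and -0.51 ± 0.48, with overlapping groups. The call of Tfam was lost in 12 of 22 alternatives, among them quantile normalization (adjusted p = 0.0645), and none of the 6 was called without the rescaling. The count was 1 without muscle 2 or muscle 3, when Ppargc1a lost its call too (adjusted p up to 0.0826), and 4 without tumour 1.

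The cycle genes were set beside the adult fibre markers tumour by tumour. Over the 9 genes the median signal, as a percentage of the gene's muscle mean, was 17.0, 17.3, 16.4, 16.5, 19.2 and 26.1 in tumours 1 to 6, and 83.1, 100.5 and 115.9 in muscles 1 to 3. The medians of 11 fibre markers, such as the myosin gene Myh4 and the parvalbumin gene Pvalb, were 44.3, 5.8, 1.2, 1.7, 0.9 and 3.7 in the same tumours. Tumour 1 had by far the highest fibre marker median of the tumours, and its cycle gene median lay within the range of the others. Summed over the 9 genes, however, its signal of 32961 was the highest of the tumours, the lowest being 15412, with Idh3g at 182.9% and Mdh2 at 82.1% of their muscle means. For the 8 other cycle genes tumour 1 had the lowest median of all tumours, at 12.7, against 23.2 to 34.3 in tumours 2 to 6. For the 18 general mitochondrial genes the medians of the tumours were 54.2 to 82.1. No correlation is given, because 6 tumours with 1 far from the rest cannot bear one.

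**Figure D3:**
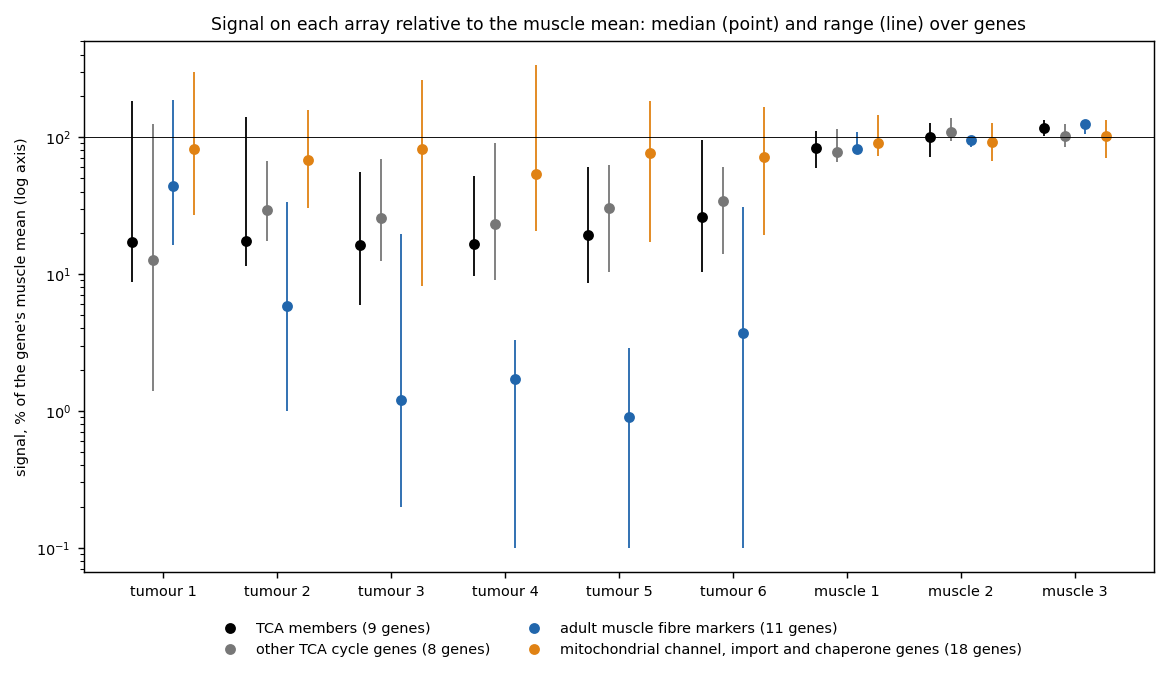
Signal on each array as a percentage of the gene's mean over the 3 muscles (log axis), with points for the median and lines for the lowest and highest gene of each of 4 lists. The medians of the 9 cycle genes stay between 16.4 and 26.1 in all 6 tumours, while those of the fibre markers range from 0.9 to 44.3.

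Individual tumours ranked differently for different members. Tumour 1 was the highest of the tumours for 3 of the 9 genes (Idh3g, Mdh2 and Ogdh) and the lowest for 3 others (Idh2, Suclg1 and Fh1). Tumour 6 was the highest for 3 and the lowest for none. Idh3a ranged from 5.9% of its muscle mean in tumour 3 to 19.8% in tumour 6, and Idh2 from 17.3% in tumour 1 to 140.9% in tumour 2.

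Among 7217 other genes of above-median brightness, the 5 whose log2 signals over the 9 arrays correlated best with the mean of the 9 members were Slc37a4, Lmo7, Adssl1, Trak1 and Ckmt2. Pearson's r was 0.998 for Slc37a4, the transporter of glucose 6-phosphate into the endoplasmic reticulum, 0.989 for Lmo7, and 0.988 for the other three. Adssl1 is the muscle adenylosuccinate synthase, Trak1 an adaptor that moves mitochondria along microtubules, and Ckmt2 the mitochondrial creatine kinase of striated muscle. All 5 fell in tumours, from -2.13 ± 0.31 for Trak1 to -7.47 ± 0.43 for Ckmt2. These values mostly measure the gap between both groups, which all these genes share.

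Since most of the 9 genes moved together, the DNA before their start sites was searched for short motifs linked to nuclear control of mitochondrial genes. RefSeq windows of GRCm38.p6, from 250 bases before to 50 after the start, were found for 8 of the 9 genes (13 windows, 6 of them of Ogdh). The ERR half-site AAGGTCA, searched on both strands as were all motifs, lay in 1 window of Ogdh and in 4.7% of all 32851 windows. The ETS motif CCGGAAG, read by the GABP factor among others, lay in 2 of the 13 windows, those of Idh3b and Idh3g, and in 8.9% of all. The palindromic NRF1 consensus was in none of the 13 windows and in 4.6% of all. The Sp1 motif GGGCGG and the CCAAT box occurred in 8 and 10 of the 13 windows, from 5 genes each, and in 35.7% and 37.4% of all windows. No motif overlap was removed, and a match of letters is a description of sequence only. The windows below are those that hold an ERR or ETS match, followed by that of Idh2, which was not called and holds neither. Ogdh was called lower, and Idh3b and Idh3g each had 1 probe set called lower and 1 not called. The windows of Cs, Suclg1, Fh1 and Mdh2, all called lower, also hold neither match. The matches therefore did not separate called from uncalled genes. Capitals mark the ERR or ETS match, on either strand.
Ogdh, chr11:6291920-6292219, plus strand: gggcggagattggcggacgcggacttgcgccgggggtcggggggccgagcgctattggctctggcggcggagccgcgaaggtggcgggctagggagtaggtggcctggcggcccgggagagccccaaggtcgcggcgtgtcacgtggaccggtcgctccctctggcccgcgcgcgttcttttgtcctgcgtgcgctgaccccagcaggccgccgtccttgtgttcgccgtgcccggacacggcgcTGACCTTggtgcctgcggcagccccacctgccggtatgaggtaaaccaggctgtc
Idh3b, chr2:130284402-130284701, minus strand: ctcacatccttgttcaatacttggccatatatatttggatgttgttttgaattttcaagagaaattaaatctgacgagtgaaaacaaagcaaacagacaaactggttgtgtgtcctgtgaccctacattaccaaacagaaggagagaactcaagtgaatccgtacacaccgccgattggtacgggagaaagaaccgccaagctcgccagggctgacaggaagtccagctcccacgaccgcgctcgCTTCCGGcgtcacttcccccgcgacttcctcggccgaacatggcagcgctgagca
Idh3g, chrX:73786848-73787147, minus strand: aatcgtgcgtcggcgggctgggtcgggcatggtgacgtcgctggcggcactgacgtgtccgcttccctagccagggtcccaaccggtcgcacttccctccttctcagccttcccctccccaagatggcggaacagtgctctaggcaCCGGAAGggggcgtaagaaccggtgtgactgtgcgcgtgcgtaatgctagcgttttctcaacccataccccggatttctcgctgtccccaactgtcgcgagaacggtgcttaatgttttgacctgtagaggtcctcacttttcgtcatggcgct
Idh2, chr7:80115301-80115600, minus strand: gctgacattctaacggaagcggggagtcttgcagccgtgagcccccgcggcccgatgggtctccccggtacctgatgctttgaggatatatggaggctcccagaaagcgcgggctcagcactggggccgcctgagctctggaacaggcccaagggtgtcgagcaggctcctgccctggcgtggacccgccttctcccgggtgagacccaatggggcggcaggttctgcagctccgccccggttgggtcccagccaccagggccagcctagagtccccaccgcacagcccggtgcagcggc
In Ogdh and Idh3b the match begins 5 bases before the start site, and in Idh3g 104 bases before it.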

How the data were processed

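Total RNA was extracted with Trizol and RNAeasy, labelled with biotin and run on Affymetrix arrays, per the labels' protocols. The authors deposited 1 linear MAS5 intensity per probe set and array; MAS5 comes from the submitters' processing notes, with no version, scaling target or filter stated there. The deposited trimmed mean (2% at each end) was 500 on 7 arrays but 294.3 on muscle 1 and 140.9 on muscle 3, so all arrays were multiplied to the median of these means.

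Of 22690 probe sets 64 controls were left out. Symbols came from the platform annotation, with 20380 probe sets of 1 symbol, 691 of several and 1555 of none. Log2(signal + 16) of all 22626 probe sets was fitted with limma 3.58.1 in R 4.3.3 (lmFit, eBayes with trend, 9 arrays, no covariates) and Benjamini-Hochberg adjusted over all of them. The ± values beside log2 differences are standard errors, and folds are on this offset scale, which understates folds of low signals. The fit was also run on simulated data, whose outcome is not given here and is not used to judge the results. Permutation tests used scipy 1.17.1 in Python 3.11.15. No columns were identical.

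The genes named are the 9 members, the other cycle genes and the genes of 6 pairs. Up to 3 called genes of each other list and the 5 most similar genes were named too. Acly, Me2, Nrf1, Ppargc1b and Gabpa were added after their values were seen, and Myh4 and Pvalb only as examples of the fibre markers. Members and lists were chosen with earlier results of these data known. Alternatives changed the scaling, offset, filter on dim probe sets, unit of the fit, moderation, weights, replicate block and arrays.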

Additional observations from a re-analysis of the deposited data

Results flagged for a closer look

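Among 24 probe sets of cycle genes, 2 had a tumour whose distance to the next tumour took up more of the tumours' log2 range than Dixon's critical value of 0.625, where chance alone marks about 5% of groups. Both were in tumour 1: Dld at 43.9, with the next tumour at 281.4, and Sdhc at 275.2, with the next tumour at 503.6.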

How the results depend on the processing

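The count of the 9 genes called lower stayed between 5 (without the rescaling) and 8 over 22 alternatives, and was 6 to 8 when 1 array was left out. The count of probe sets called lower ran from 9 (without the rescaling) to 14, and from 12 to 14 with 1 array left out. Of the 16 probe sets 8 kept their direction and call in every alternative; Cs (2 of 3 probe sets), Idh3b and the second Mdh2 probe set each lost 1 call. Without the rescaling the median of all probe sets was 0.754 instead of 0.109 (log2) and 87% of 4496 calls were higher instead of 51.1% of 3488; 2 of the 8 other cycle genes were called, and the differences of Idh2 and Suclg2 turned to 0.06 and 0.34. Leaving out 1 array gave 1700 (without muscle 3) to 4369 calls in all, and 1983 without muscle 2. The difference of Mdh2 minus Mdh1 ran from -0.45 to 0.45 with 1 array left out. Other pair differences kept their sign. Deviations of same-numbered tumours and muscles correlated at 0.213, 0.164 and -0.021. Differently numbered samples were not compared, so whether the numbers pair the samples is not known. The replicate block on tumours 1 to 3 and muscles 1 to 3 gave 2432 calls in all. With it 6 of the 9 genes and 12 of the 16 probe sets were called lower. Without the block the same arrays gave 1799, 6 and 12. Of the 9 genes the block changed no call relative to the same arrays unblocked. The cause of these changes was not tested.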
